A study of Raphanus sativus with 8 samples.

Results

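Among 78395 radish unigenes, 372 (0.475%) had almost no reads in shoots of the inbred line NH-JS1 and were counted in every library of NH-JS2. They were chosen by raw read count, as unigenes with a count of at most 2 in all 4 libraries of NH-JS1 and at least 30 in all 4 libraries of NH-JS2, those with gibberellin treatment included. The choice used the contrast between the lines, so the difference between NH-JS1 and NH-JS2 is described for these unigenes and was not tested. A unigene is a transcript sequence assembled from reads and radish gene models. Where unigenes are grouped by gene below, the gene is their Arabidopsis match, which need not be 1 gene of radish. The reversed rule, at least 30 in NH-JS1 and at most 2 in NH-JS2, gave 526 unigenes (0.671%), which serve as a comparison below.

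The study asked how gibberellin (GA), a plant hormone that promotes stem growth and bolting, acts in radish (Raphanus sativus) lines that bolt at different times. NH-JS1 is a late-bolting and NH-JS2 an early-bolting inbred line. Whole shoots of both were sequenced without GA (NH-JS1 and NH-JS2, labelled as vegetative) and after GA treatment (NH-JS1_GA and NH-JS2_GA, labelled as bolting), with 2 libraries per group and several plants pooled in each library. Plants of all 4 groups had been vernalized as seedlings and then returned to warm growth conditions. Shoots were harvested at day 6 after GA was sprayed or withheld. The paper reports that NH-JS1 plants sprayed with GA had still not bolted at a later day. The label of bolting therefore need not describe the NH-JS1_GA shoots at harvest. Each line is 1 inbred genotype, so a difference between the lines cannot be told apart from any other difference between these 2 genotypes.

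Library totals ranged from 23757588 to 34165272 reads, and replicate 2 of NH-JS2 was the smallest. Every count in the table is at least 1, and a unigene that received no reads is taken here to stand at 1, called the floor. Levels are given as raw counts, or as scaled counts, which are counts divided by the relative library size after TMM normalization. As a check of tissue, the 20 unigenes of 5 Rubisco, Rubisco activase and light-harvesting genes summed to between 845700 and 1712000 scaled counts per library, and the root gene RHD2, the only 1 of 7 root markers with a unigene, to between 8.01 and 21.8. Of 5 floral organ genes, PI and AP3 had no unigene. The unigenes of the other 3 summed to between 37.9 and 57.6 scaled counts in the NH-JS1 libraries. In the NH-JS2 libraries they summed to between 267 and 361, mostly from SEP3. SEP1 was also higher in NH-JS2, whereas AG was not. The mean of AG was 12.9 in NH-JS1 and 18.6 in NH-JS1_GA, against 12.45 in NH-JS2 and 13.9 in NH-JS2_GA. None of the floral organ unigenes belonged to the 372, and the part of tissue composition in the differences was not tested. In whole shoots, fewer cells of a type and less RNA per cell cannot be told apart.

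Mobile elements make up a large part of plant genomes. DNA transposons such as the hAT and Mutator groups move through a transposase, LTR and non-LTR retroelements move through reverse transcriptase and ribonuclease H, and Helitrons of plants carry a helicase related to PIF1 and often a gene related to the large subunit of replication protein A (RPA), whose OB-folds bind single-stranded DNA. Copies of such elements differ in number and place between inbred lines of a species, and most are kept transcriptionally quiet. The same domains also occur in cellular genes, for example in RPA itself, which acts in DNA replication.

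All 372 unigenes passed edgeR's filter on low counts, which left 65934 unigenes for testing. In NH-JS1, 189 of the 372 stood at the floor in all 4 libraries. The other 183 had a count of 2 somewhere, 79 of them in 1 library, 61 in 2, 39 in 3 and 4 in all 4. Counts of 2 were found for 93 and 115 unigenes in the NH-JS1 libraries and for 67 and 59 in NH-JS1_GA. Summed over the 372 unigenes, the counts were 465 and 487 in NH-JS1, with 439 and 431 in NH-JS1_GA, against 71731 and 54230 in NH-JS2, with 68935 and 81244 in NH-JS2_GA. In the NH-JS2 libraries these unigenes took between 0.228% and 0.255% of all reads.

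Most of these unigenes were expressed at low to moderate levels in NH-JS2. The mean scaled count over the 4 NH-JS2 libraries ranged from 35.9 to 5932 with a median of 101, whereas the median of all unigenes was 86.0. The middle of the distribution lay between 63.6 and 198, the lower and upper quartiles. Only 13 of the 372 (3.50%) had a mean of at least 500, compared with 16.1% of all unigenes. The 5 highest unigenes held 21.2% of the reads of the set, and the highest held 7.99%.

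TBIU068191 was the highest. It matched AT5G56500, a member of the TCP-1/cpn60 chaperonins, which help other proteins fold, with 62.4% identity to its best protein match. Its counts were 6504 and 4360 in NH-JS2, with 5558 and 5630 in NH-JS2_GA, against 2 and 2 in NH-JS1, with 1 and 1 in NH-JS1_GA. With the floor subtracted, 2 reads were left for NH-JS1 and 22048 for NH-JS2, a ratio of 12580 after scaling with a 95% exact interval from 3483 to 103900. Such intervals cover counting error only. The rule chose the unigene by these same counts, so neither ratio nor interval tests the difference between the lines. The remaining 2 unigenes of AT5G56500, TBIU003160 and TBIU003159, both had 98.9% identity to their best match and were counted in every library. TBIU003160 had 584 and 614 reads in NH-JS1 (590 and 670 with GA), close to its 656 and 514 in NH-JS2 (668 and 740 with GA). It did not pass between the lines without GA (0.40 on the log2 scale, with a standard error of 0.11 and an adjusted p of 0.0253 by edgeR) at the study's threshold of 0.01.

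Next among the annotated unigenes were 3 with consecutive numbers that matched AT3G15960, a MutS-like protein of the family that binds mismatched DNA. TBIU061922 had 2751 and 1894 reads in NH-JS2, with 2435 and 2991 in NH-JS2_GA, against 1, 2, 1 and 2 in the NH-JS1 and NH-JS1_GA libraries. TBIU061920 had 2326, 1548, 1982 and 2387 reads, and TBIU061921 had 2318, 1550, 1985 and 2384, in the same order of the NH-JS2 libraries. The counts of the last pair differed by less than 1% in every library, and whether the 3 share reads was not tested. They are not independent examples.

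AT3G15960 had 13 further unigenes, and they had the opposite pattern. All 13 stood in runs of consecutive numbers, often with near-equal counts, so they are not 13 independent examples either. Summed over these 13, the counts were 2745 and 2683 in NH-JS1, with 2035 and 2505 in NH-JS1_GA, against 561 and 18 in NH-JS2, with 35 and 19 in NH-JS2_GA. With GA, all 13 were called lower in NH-JS2 by edgeR, with log2 fold changes from −7.40 to −4.22. Without GA, 8 of the 13 were called lower, with log2 fold changes of all 13 from −5.90 to −2.45. Replicate 1 of NH-JS2 held 561 of these reads while its fellow library held 18, and without that replicate all 13 were called lower (from −7.20 to −4.74). Over all 16 unigenes the gene went from a mean of 2340 scaled counts in NH-JS1 to 7257 in NH-JS2, 97.7% of the latter on the 3 unigenes above.

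TBIU070373 matched RAB8A (AT3G46060), a small GTPase of membrane traffic, with 40.3% identity. It stood at the floor in all NH-JS1 libraries and had 658 and 1128 reads in NH-JS2, with 903 and 1076 in NH-JS2_GA, a difference of at least 368-fold when 3 counts per library are taken as the lower limit. TBIU070374 (668, 1139, 904 and 1097 reads) and TBIU070375 (665, 1148, 914 and 1109), which had no protein match, followed it in number and nearly equalled it in count. The highest other unigene of RAB8A, TBIU060309, had 98.1% identity and between 705 and 1141 reads in every library. The gene total of RAB8A was 6335 scaled counts for NH-JS1 and 7939 for NH-JS2, of which TBIU070373 held 13.1%.

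Several of the most abundant unigenes had no match at all. TBIU020503 had 2840 and 2447 reads in NH-JS2, with 2166 and 2430 in NH-JS2_GA, against 1, 2, 2 and 1 in the NH-JS1 libraries. TBIU002247 had 1475, 1112, 1566 and 1644 reads in the NH-JS2 libraries. Of the 13 unigenes with a mean of at least 500, only TBIU068191, the 3 of AT3G15960 and TBIU070373 had a match in Arabidopsis.

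**Figure D1:**
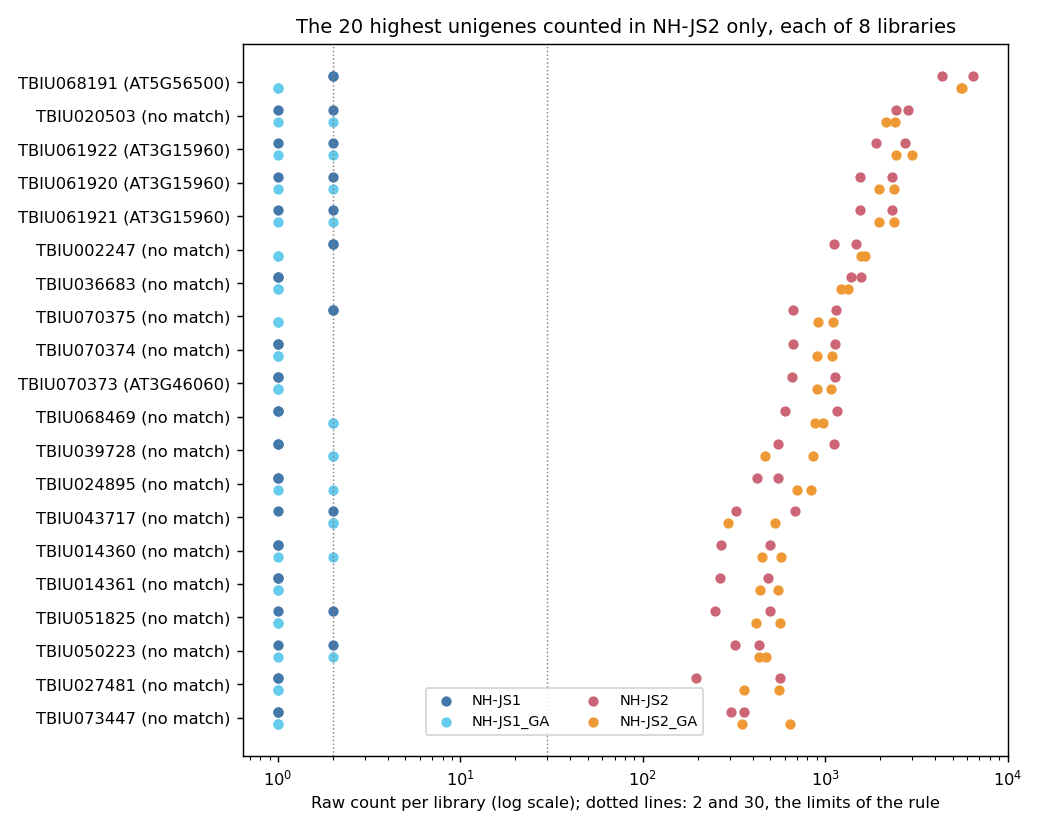
Raw count per library, on a log axis, of the 20 highest unigenes counted in NH-JS2 only, with 1 point for each of the 8 libraries coloured by group and dotted lines at the limits of the rule, 2 and 30. The NH-JS1 points lie at 1 or 2 by choice of the unigenes, and the 4 NH-JS2 points of TBIU068191 lie between 4360 and 6504.

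The plot of raw counts by library shows that the 4 NH-JS2 libraries of a unigene mostly lay close together. Over the 372 unigenes the ratio of the highest to the lowest scaled count in NH-JS2 libraries had a median of 1.37. It was below 2 for 334 unigenes, from 2 to 4 for 37, and above 4 for 1. The median absolute log2 ratio of the replicates was 0.25 in NH-JS2 and 0.19 in NH-JS2_GA. It was 0.22 and 0.14 for the 50404 tested unigenes with a mean of at least 35.9, the lowest of the 372. That larger set had no upper limit, so its levels are not matched to those of the 372.

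At the edge of the rule the counts were small. The members with the lowest counts were TBIU009745 (31, 32, 30 and 39 reads in the NH-JS2 libraries), TBIU068818 (37, 30, 37 and 31) and TBIU010529 (30, 37, 31 and 38). Just outside, TBIU039117 (59, 29, 34 and 117), TBIU024927 (61, 29, 67 and 65) and TBIU021054 (62, 29, 51 and 72) were left out by the count of 29 in replicate 2 of NH-JS2. On the NH-JS1 side, TBIU068320 was left out by a single count of 3, although it had 1881, 1158, 1725 and 1994 reads in the NH-JS2 libraries. The same held for TBIU067530 and TBIU067531 of AT1G22630.

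Consecutive unigene numbers often belonged to near-equal counts. The 372 unigenes fell into 257 runs of consecutive numbers, of which 187 held 1 unigene and 70 held 2 or more, with 185 unigenes in the latter. In 51 of the 70 runs the levels lay within 1.5-fold of each other, and 54 of the runs had a single match, or no match, throughout. Such runs may share a source, and separate loci were not counted here because the unigenes carry no coordinates.

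Annotation was sparser and weaker than for the transcriptome as a whole. An Arabidopsis match was given for 188 of the 372 unigenes (50.5%), to 65 genes, compared with 76.7% of all unigenes and 42.2% of the 526 counted in NH-JS1 only. No protein match in any species was given for 167 (44.9%), compared with 21.9% of all unigenes and 53.0% of the 526. Where a best protein match was given, its median identity was 64.4% over 205 unigenes, against 91.0% over 61211 unigenes in all. For the 526 it was 60.9% over 247 unigenes. Identity was below 80% for 159 of the 205 (77.6%), against 20.2% of all. The best match was in Brassica rapa, a close relative, for 81.5% of the matched unigenes and 85.1% of all.

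Features of mobile elements were frequent in the annotation. Ribonuclease H, reverse transcriptase or transposon words stood in the description of 46 unigenes (12.4%), compared with 1.19% of all unigenes and 7.61% of those counted in NH-JS1 only. With protein domains also considered, a grouping drawn up after the annotation had been seen, 116 of the 372 (31.2%) from 24 Arabidopsis genes carried an element-type domain or description, compared with 2.53% of all and 17.9% of the 526. Counted by runs instead of unigenes, 72 of 257 (28.0%) had such a feature. These are shares without a test, and neighbouring unigenes may share a source.

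Unigenes with RPA or OB-fold domains were the largest of these groups, at 37 (9.95% against 0.422% of all and 3.80% of those counted in NH-JS1 only). They came from 5 Arabidopsis genes, with levels from 35.9 to 326 scaled counts. Most matched AT2G05642, AT1G52950 or AT1G14800, described as nucleic acid-binding proteins with an OB-fold. TBIU009237, of AT2G05642, had 359, 198, 310 and 363 reads in the NH-JS2 libraries. TBIU041712, of AT1G52950, had 273, 188, 295 and 349 reads and stood at the floor in NH-JS1, at least 103-fold lower there. The highest unigenes of AT1G14800 were in the wider grouping by their description and had no such domain in the table. TBIU009520 had a mean of 382 ± 36.6 scaled counts (SD, n = 4) over the NH-JS2 libraries, and TBIU009523 and TBIU009521, close to it in number, stood at 374 and 367.

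PIF1-like helicases, which unwind DNA, made up 6 unigenes (1.61% against 0.0447% of all and 0.570% of those counted in NH-JS1 only). TBIU008451, of AT3G51690, had 333 and 252 reads in NH-JS2, with 347 and 501 in NH-JS2_GA and stood at the floor in NH-JS1, so that NH-JS2 was at least 134-fold higher. TBIU008447, of AT3G51700, had 270, 204, 256 and 430 reads in the NH-JS2 libraries. Its number lies close to that of TBIU008451, but whether the pair comes from 1 locus was not tested.

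Among DNA transposons, hAT domains stood in 11 unigenes (2.96% against 0.162% of all) and Mutator domains in 9 (2.42% against 0.168%). The highest hAT unigene was TBIU000616 of AT3G42170, with a BED zinc finger and hAT dimerisation domain, at 418 and 254 reads in NH-JS2, with 417 and 468 in NH-JS2_GA, at least 146-fold above NH-JS1. Of the Mutator unigenes, 8 matched MuDR-family transposases (AT1G64260 and AT1G49920), and TBIU001080 matched AT3G30370, which has no description in the table. TBIU006038, of AT1G49920, had 151 and 87 reads in NH-JS2, with 128 and 328 in NH-JS2_GA. Of the unigenes counted in NH-JS1 only, 3.61% had hAT and 0.190% had Mutator domains, again without a test.

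Retroelement domains stood in 18 unigenes (4.84% against 0.721% of all and 3.23% of those counted in NH-JS1 only). They include unigenes named for a kinase. All 9 unigenes that matched CRK8 (AT4G23160), annotated as a cysteine-rich receptor-like kinase, carried retroelement domains, and 0 of the 9 carried a kinase domain. TBIU022215, the highest of them, had 304 and 319 reads in NH-JS2, with 320 and 347 in NH-JS2_GA. Together with 2 unigenes of AT4G29380, also described as a protein kinase, 11 unigenes bore such a name, of which 0 had a kinase domain and 11 an element-type domain. Their kinase name comes from the match. TBIU020645, of the ribonuclease H-like protein AT4G29090, had 172 and 259 reads in NH-JS2, with 189 and 289 in NH-JS2_GA.

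**Figure D2:**
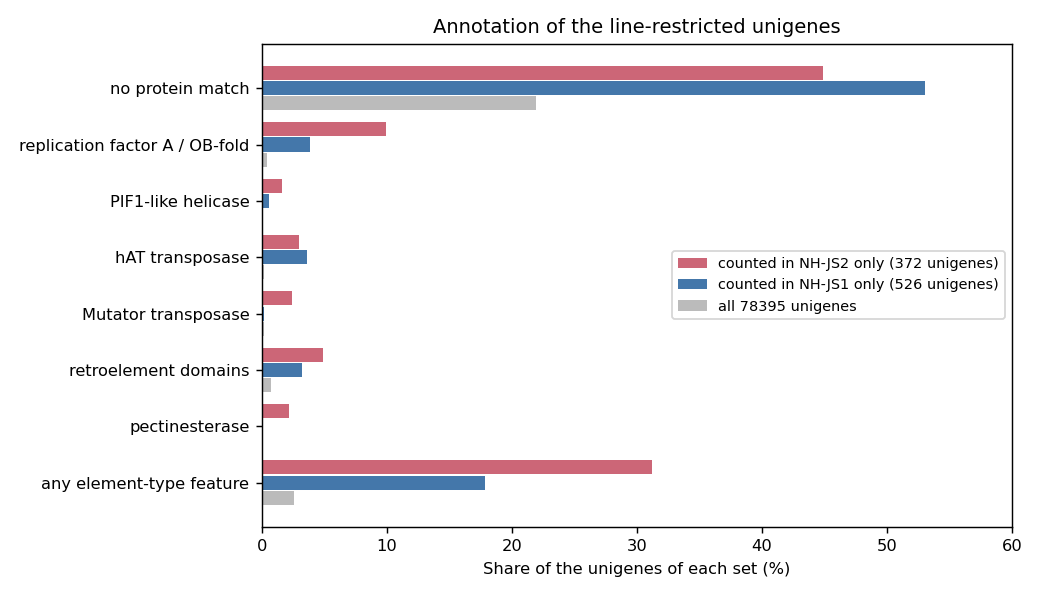
Share of unigenes (percent, horizontal axis from 0) with each annotation, for the 372 counted in NH-JS2 only, the 526 counted in NH-JS1 only and all 78395 unigenes. An element-type feature stood in 31.2%, 17.9% and 2.53% of these sets, and no protein match was given for 44.9%, 53.0% and 21.9%.

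The plot of annotation shares also has a bar for pectinesterases, which cut methyl groups from cell-wall pectin. All 8 such unigenes matched QRT1 (AT5G55590), which in Arabidopsis is needed for the separation of pollen grains, and they form the longest run, TBIU019397 to TBIU019404, with means from 179 to 205 scaled counts. TBIU019399 had 180 and 174 reads in NH-JS2, with 175 and 228 in NH-JS2_GA, against 2, 2, 1 and 1 in the NH-JS1 libraries. No other unigene matched QRT1. Summed over the 8, the gene went from 10.7 to 1558 scaled counts, most of the former being the floor itself. The 8 counts per library were so alike that they are read here as 1 observation. If the 8 share reads, which was not tested, the sum counts those reads more than once.

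Several other families had no or few unigenes in the set, to be read beside the overall share of 0.475%, at which the shorter lists would hold about 1 unigene or fewer. Of 203 unigenes of flowering-time genes and 50 of gibberellin genes, none was among the 372, as was true of 369 cytochrome P450, 259 glycosyltransferase, 548 pentatricopeptide repeat, 1902 ubiquitin-related, 1235 peroxidase or oxidoreductase, and 578 defensin or lipid transfer unigenes. Immune receptors of the NLR type gave 2 unigenes (0.538% against 0.966% of all) and F-box proteins 2. The NLR unigenes, TBIU002685 (62 and 46 reads in NH-JS2, 73 and 84 in NH-JS2_GA) and TBIU002688 (69, 44, 58 and 100), both matched AT4G19510 of the TIR-NBS-LRR class. Their gene went from 32.7 to 291 scaled counts, since further unigenes of it fell just short of the rule. TBIU002687, for example, had 40, 29, 39 and 48 reads in the NH-JS2 libraries and stood at the floor in NH-JS1.

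In 6 of the 65 Arabidopsis genes every unigene in the table was restricted to NH-JS2. Besides QRT1 and the ribonuclease H-like AT2G13980, these were genes with 1 unigene each. KC1 (AT4G32650), a regulatory subunit of potassium channels, was represented by TBIU027390 alone, at 228 and 276 reads in NH-JS2, with 588 and 400 in NH-JS2_GA, against 2, 2, 1 and 1 in the NH-JS1 libraries. TBIU064042, of AT3G23760, which has no description in the table, had 439 and 354 reads in NH-JS2, with 367 and 414 in NH-JS2_GA. TBIU062843, of the VAMP-family protein AT4G00170, had 142, 102, 136 and 134 reads and was at least 48.8-fold higher than in NH-JS1. TBIU012452, of the GDSL-type lipase AT3G14220, had 99, 52, 81 and 75 reads and was at least 28.95-fold higher. The identities of these 4 to their best match, from 89.6% to 98.2%, lay above the upper quartile of the set, 76.5%.

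For the other 59 genes the table held 1456 further unigenes, called partners here. In 51 of the genes at least 1 partner had 30 or more reads in all 4 NH-JS1 libraries. Reads with the same Arabidopsis match were thus present in that line too, though not necessarily from the same radish gene. Of the 65 totals, 38 lay within 2-fold between the lines, 26 were more than 2-fold higher in NH-JS2, 10 of them more than 10-fold, and 1, the reverse transcriptase-related AT1G43730, was lower, at 515 scaled counts against 2578. The unigenes restricted to NH-JS2 held over 50% of the NH-JS2 total in 18 genes and under 10% in 14, with a median of 21.4%. Where unigenes of a gene share reads, which was not tested, its total counts those reads more than once.

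Totals within 2-fold were found for 20 of the 41 genes without element-type annotation and for 18 of the 24 with it. Among the former, named after their values were seen, the GATA-type transcription factor GATA26 (AT4G17570) had totals of 1639 (NH-JS1) and 1641 (NH-JS2) scaled counts, with 25.9% of the latter on unigenes restricted to NH-JS2. Its highest member, TBIU076341, had 247, 179, 216 and 228 reads in the NH-JS2 libraries. A pyruvate kinase (AT3G52990), an enzyme of glycolysis, had 6733 and 6746, with 8.72% of the latter on restricted unigenes. LUT2 (AT5G57030), the lycopene epsilon-cyclase of lutein synthesis, had 5792 and 6264, with 3.12%. Restricted unigenes of both genes lie in runs of consecutive numbers that also hold element-type unigenes. HDG2 (AT1G05230), a homeodomain transcription factor of the epidermis, had 1138 and 1216. ASY1 (AT1G67370), a HORMA-domain protein of meiotic chromosome axes in Arabidopsis, had 416 and 727. Beyond 2-fold, the cystatin-like AT5G05060, of a family that inhibits cysteine proteases, went from 45.7 to 810 scaled counts, with 3 of its 4 unigenes restricted to NH-JS2. The chaperonin AT5G56500 went from 1128 to 7278, and the phosphodiesterase-like AT5G41080 from 34.7 to 471.

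**Figure D3:**
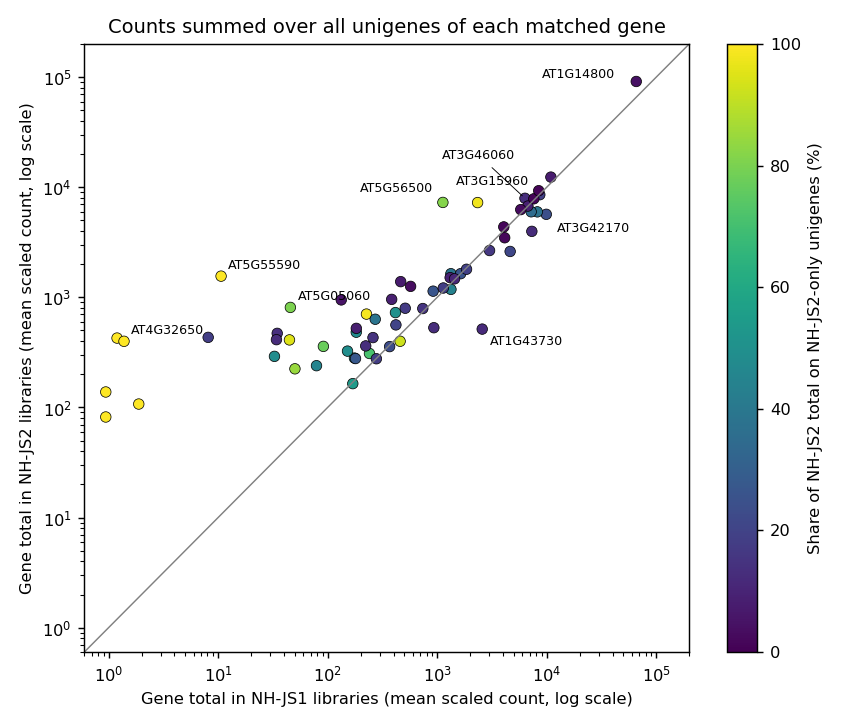
Scaled counts summed over all unigenes of each of the 65 matched Arabidopsis genes, as means over the 4 NH-JS1 libraries (horizontal) and the 4 NH-JS2 libraries (vertical), both on log axes with the line of equality. Points are coloured by the share of the NH-JS2 total held by unigenes restricted to NH-JS2, and 38 of the 65 lie within 2-fold of the line.

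The plot of gene totals shows the genes whose unigenes were all restricted at the far left. AT1G52490, which had 3 partners, lies there too, at 8.12 scaled counts in NH-JS1. The partners were tested between the lines by edgeR over all 65934 unigenes, with limits of 0.01 on the adjusted p and 0.6 on the size of the log2 fold change. By definition the partners hold no unigene that met the rule but keep those that met the reversed rule, which lowers the share called higher against the share called lower. Of 1093 partners tested, 209 were higher in NH-JS2 without GA (19.1%, where 9.11% of all unigenes were called) and 265 were lower (24.3%, where 9.26% were called). With GA, 211 were higher (19.3% against 8.76%) and 259 lower (23.7% against 8.83%). In both comparisons, which share no library but came from the same fit, 181 were higher and 245 lower. All NH-JS2 libraries lay above all NH-JS1 libraries for 356 partners and below them for 357, where 19.5% and 19.6% of all unigenes did so. The 245 and the 357 include the 100 partners that met the reversed rule, which fixed their direction. The median log2 fold change of the partners was −0.02 without GA and −0.01 with GA, beside 0.01 and −0.01 for all unigenes.

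Partners that met the reversed rule numbered 100. Without them, 993 partners were left, of which 21.1% were called higher and 16.6% lower without GA, and 21.3% and 16.01% with GA. For 49763 unigenes of other Arabidopsis genes with 2 or more unigenes, also without those of either rule, the shares were 7.02% and 7.56% without GA and 6.48% and 7.17% with GA. A few large families weigh on these counts, as 15 genes with more than 20 unigenes gave 849 of the 1093 partners. In the genes with 2 to 20 unigenes, 76 of 244 partners were higher and 53 lower without GA, and 77 and 57 with GA. These counts again include partners that met the reversed rule, which fixed those as lower. Reads of similar copies may be divided between unigenes or shared by them, and the part of this in the partners' differences was not tested.

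Restriction to either line occurred under the same Arabidopsis match in 17 cases, each with a unigene counted in NH-JS2 only and another counted in NH-JS1 only. These were 27.9% of the 61 genes with a restricted unigene and at least 2 unigenes, whereas 0.704% of all 12363 Arabidopsis genes with at least 2 unigenes had 1 counted in NH-JS1 only. Family size differs between these groups, with a median of 9 unigenes per gene against 2. For genes with 2 to 20 unigenes the shares were 7 of 46 (15.2%) and 0.578%, and for larger ones 10 of 15 (66.7%) and 21.3%.

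Of the 17 genes, 13 had element-type annotation. For AT3G42170, of the hAT group, TBIU000616 was counted in NH-JS2 only, while TBIU020551 had 1027 and 1012 reads in NH-JS1, with 883 and 829 in NH-JS1_GA, against 2, 1, 1 and 1 in the NH-JS2 libraries. The unigene of that gene with the highest mean over all 8 libraries, TBIU009917, was counted in all 8 libraries, from 500 to 1058 reads. For AT1G14800, TBIU009520 stood beside TBIU001127, at 675, 496, 454 and 429 reads in the NH-JS1 and NH-JS1_GA libraries. TBIU072710 of AT2G05642 had 337, 304, 293 and 275 reads there, TBIU023371 of CRK8 had 160, 155, 170 and 123, and TBIU023697 of AT3G51700 had 63, 55, 39 and 53. TBIU062426 of AT1G52950 was uneven, at 848 and 188 reads in NH-JS1, with 682 and 594 in NH-JS1_GA. Among genes without an element-type annotation, AT1G31150, with a domain of unknown function, also had unigenes of both kinds, with TBIU072157 at 161 and 191 reads in NH-JS2, with 157 and 257 in NH-JS2_GA.

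Whether GA changed these unigenes within NH-JS2 was a contrast the rule did not use, apart from the minimum of 30 reads in every library. The edgeR fit took its spread from all 8 libraries, however, and the rule held those of NH-JS1 at counts of 1 or 2. By edgeR's quasi-likelihood test, 0 of the 372 were called higher and 0 lower at the thresholds used for the partners. Over all unigenes tested, 0.0091% were called higher and 0.0273% lower, a rate at which a set of 372 would hold fewer than 1 call. At an adjusted p of at most 0.05 and no minimum fold, 0 passed, beside 0.0243% of all higher and 0.0394% lower. The smallest adjusted p of the 372 was 0.269. DESeq2 also called 0, as did edgeR fitted to the NH-JS2 and NH-JS2_GA libraries only. At an unadjusted p under 0.05, 21 were higher (5.65%, where 3.74% of all were) and 7 lower (1.88%, where 5.03% were). DESeq2 gave 2 higher and 4 lower at that level. By edgeR, 9 were higher and 4 lower with only the NH-JS2 and NH-JS2_GA libraries fitted, and 8 and 4 after subtracting 1 from every count. The excess of higher over lower unigenes thus depended on the fit. For these alternatives the share over all unigenes is not given here.

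The median log2 fold change of the 372 was 0.04, beside −0.01 for all unigenes, and 358 (96.2%) lay within 0.6 of 0, beside 93.5% of all. The other 14 lay beyond that limit without passing the test, and values ranged from −0.66 for TBIU005893 to 0.86 for TBIU001672, and 203 were positive and 169 negative. The libraries did not overlap, with NH-JS2_GA higher, for 68 unigenes (18.3%, where 18.4% of all were), and with NH-JS2_GA lower for 53 (14.2%, where 19.7% were). KC1's TBIU027390 had a log2 fold change of 0.67 (with a standard error of 0.26 and an adjusted p of 0.538 by edgeR), and its scaled counts overlapped between the groups, at 237 and 382 without and 608 and 369.5 with GA. TBIU068191 had −0.22 (0.11 standard error, adjusted p of 0.615 by edgeR). In NH-JS1 the counts of 1 or 2 leave no GA effect to be measured.

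**Figure D4:**
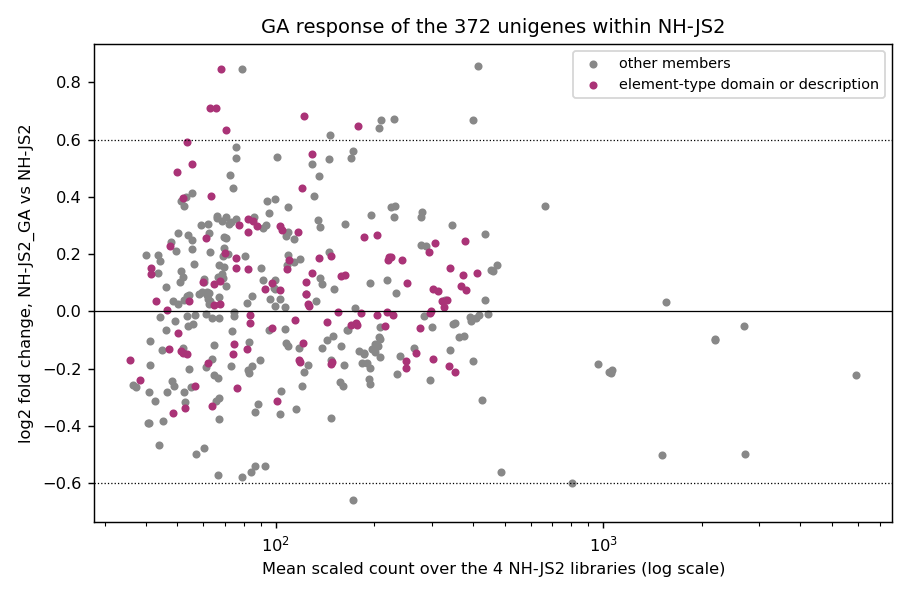
Fitted log2 fold change of NH-JS2_GA relative to NH-JS2 for each of the 372 unigenes (vertical), against its mean scaled count over the 4 NH-JS2 libraries (horizontal, log axis), with element-type unigenes in a separate colour and dotted lines at 0.6 and −0.6. Of the points, 358 lie between the dotted lines, and 0 passed the edgeR test.

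In the plot of the GA response, unigenes with element-type features lay in the same range as the others. By group, the median log2 fold change was 0.03 for hAT, −0.01 for Mutator, 0.03 for retroelement and 0.03 for RPA or OB-fold unigenes, 0.24 for the 6 PIF1-like helicases and −0.13 for the 8 unigenes of QRT1, and 0 unigenes were called in any of these groups.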

How the data were processed

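RNA was sequenced from 8 pooled shoot samples in 4 groups of 2. The authors trimmed the reads with SolexaQA, mapped them with Bowtie2 2.1.0 allowing at most 2 mismatches, and deposited read counts for each unigene, with no normalization. The submitters' processing notes also name TopHat, with a version not given in the sources used here. How reads that fit several unigenes were counted is not given there either. Percent identity to the best protein match comes from the authors' BLASTp annotation in the deposited table, which also pairs unigenes with Arabidopsis genes, descriptions and Pfam domains. Normalized counts and log2 fold changes of the authors' own comparisons, also in the table, were not used.

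Version suffixes were removed from the Arabidopsis identifiers. In R 4.3.3, edgeR 4.0.16 (filterByExpr, TMM, glmQLFit and glmQLFTest) was fitted to all 8 libraries with 1 mean per group, and p-values were adjusted over 65934 unigenes by the Benjamini-Hochberg method. DESeq2 1.42.0 was an alternative, as were other filters, thresholds, scalings, samples in the fit, a replicate block and leaving out each library. Subtracting 1 from every count was added after the data were seen. The procedure was tested on simulated data. P-values measure the spread between 2 pools per group. A fold against a line at the floor was computed against 3 counts per library. Where reads were left above the floor, the ratio was taken after subtracting 1, with an exact 95% interval.

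The restricted unigenes, the lists and the tests were chosen with earlier results of these data known. Named were the 12 highest members with an Arabidopsis match, members called for GA, those nearest the limits, the 2 highest of each family list with 5 or more members, the 6 highest genes with unigenes restricted to either line, list members for flowering and gibberellin, the highest partner of each of the 12, and the 4 highest members whose gene has no other unigene. Other unigenes and gene totals were chosen after their values were seen. No unigene sequences were used here.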

Additional observations from a re-analysis of the deposited data

How the results depend on the processing

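The number of unigenes restricted to NH-JS2 (372) follows the limits of the rule. It was 189 with a count of at most 1 as silent and 562 with at most 5, and 659 with at least 10 reads as expressed and 132 with at least 100. Those restricted to NH-JS1 (526) numbered 323, 795, 861 and 229 under the same changes. With the limits set on scaled counts, 281 were restricted to NH-JS2 and 341 to NH-JS1. The 17 genes with unigenes of both kinds became 28, 29 and 6 with the limits at 5, 10 and 100. Leaving out 1 library gave 375 to 444 unigenes, 531 to 566 unigenes and 17 to 19 genes. As the rule asks for every library, leaving 1 out can only keep or raise these numbers. With a minimum mean scaled count of 500, only 16 partners were higher and 18 lower without GA, and 16 and 10 with GA, as most partners lie under that level. Leaving out 1 library gave 146 to 202 higher and 239 to 265 lower partners without GA, and 155 to 237 and 221 to 272 with GA. Members called for GA stayed at 0 in either direction under all 16 alternatives, the subtraction of 1 among them.

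The labels give the groups the same replicate numbers, and nothing states that they pair the libraries. Deviations of same-numbered libraries had a correlation across unigenes of −0.02 for NH-JS1 and NH-JS1_GA and 0.12 for NH-JS2 and NH-JS2_GA. With the replicate block, 209 partners were higher and 261 lower without GA, 208 and 260 with GA, and 0 members were called for GA. With 2 pools per group, a modest GA effect on unigenes of about 100 reads may go uncalled.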

Other observations

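A few of the unigenes restricted to NH-JS2 varied widely among its libraries, and were chosen here after their values were seen. TBIU056670, which has no match, had 291 and 34 reads in NH-JS2, with 50 and 559 in NH-JS2_GA, so that its highest scaled count was 10.99 times its lowest and each group held a high and a low library. TBIU054037, also without a match, had 156, 44, 70 and 245 reads in the same order, and TBIU033235, of AT3G32904, had 139, 59, 70 and 263. TBIU032822, of AT3G19790, had 107, 46, 51 and 148. In these 4 unigenes replicate 1 was the higher library in NH-JS2 and replicate 2 the higher in NH-JS2_GA, and the shared pattern was not tested. TBIU001672, without a match, differed from them, at 217 and 265 reads in NH-JS2, with 377 and 729 in NH-JS2_GA, with the groups not overlapping. Its adjusted p for GA was 0.503 by edgeR. Of all unigenes tested, 18.4% also had both NH-JS2_GA libraries above both of NH-JS2.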
